A study of Canis lupus familiaris with 29 samples.

Results

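Genes that copy, supply and repair DNA were followed across 8 groups of MDCK cell arrays. The set holds 53 gene symbols, and a gene entered the tests where a probe set that names this single gene stood at log2 5 or above in 3 or more of the 29 arrays. Where several probe sets of a gene did so, the one with the highest mean over all arrays stood for the gene. Of the 53 genes, 51 had a probe set that names a single gene (117 probe sets in all) and 47 were tested, of 16571 probe sets tested in the whole series. ORC2, GINS3, POLE and BRCA1 stayed under the filter, and LIG1 and BLM are named only. The members were not chosen by their values in these arrays, but they were chosen with earlier results of the same arrays known.

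MDCK is an established line of dog kidney epithelial cells, here of type II. Messenger RNA levels were measured on Affymetrix canine arrays, as log2 levels per probe set, in cells grown flat on transwell filters (2D) or embedded in collagen (3D). Untreated cells served as control in each culture (4 arrays each). Other cells received HGF (hepatocyte growth factor), which activates the receptor MET (4 arrays per culture), HGF with PD-98059 (4 arrays in 2D and 3 in 3D) or HGF with U0126 (3 arrays in each culture). PD-98059 and U0126 are chemically different inhibitors of MEK, the kinase that activates ERK, and neither was given without HGF. The sources used here do not give doses, times or whether replicate arrays came from separate cultures, so the p-values rest on how far these arrays vary, and that variation may be technical. All differences below are log2 differences between group means ± SE from limma, with Benjamini-Hochberg adjusted p-values over all 16571 probe sets. A gene rose or fell where its adjusted p was under 0.05.

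A cell prepares for DNA replication by licensing: the origin recognition complex (ORC) marks origins, and CDC6 and CDT1 help it load the ring-shaped MCM helicase. In S phase CDC45 and the GINS complex turn the ring into an active helicase, primase and DNA polymerase alpha start new strands, and the clamp PCNA, loaded by replication factor C (RFC), holds the polymerases on DNA. Many of these genes are targets of E2F transcription factors, which growth factor signals through ERK help to release, and untreated confluent epithelium usually expresses them at low levels.

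The arrays carried the epithelial markers EPCAM, KRT8, KRT18, CDH16, OCLN and TJP1 at log2 10.3 or more in every group, 6 of the 7 epithelial markers with a probe set, while the mean of CDH1 stayed at 3.14 or less. EPCAM, KRT18 and OCLN fell with HGF in both cultures, and TJP1 in 3D. None of 7 fibroblast and 4 endothelial markers reached log2 5 in a group. Of 5 leukocyte markers only CD68 did so, with a highest mean of 5.77 in 2D HGF, and the others, PTPRC, CSF1R, CD3E and LYZ, stayed at 3.25 or less. The 3D HGF arrays differed most among themselves, where the least alike pair of arrays correlated at 0.964, against 0.987 or more in the other groups, and replicates 1 and 4 lay farthest from the group mean. RNA quality was gauged from the array's controls as 3′ level minus 5′ level (for EEF1A1, minus the middle), averaged over EEF1A1, ACTB and GAPDH. This RNA-quality index had a mean of 1.44 in untreated 2D cells (SD 0.10, n = 4) and 0.838 in those with HGF (SD 0.0476, n = 4). In 3D it was 1.93 untreated (SD 0.238, n = 4) and 1.68 with HGF (SD 0.583, n = 4). In an exact two-sided permutation test it differed with p = 0.0286 (the smallest p that the 70 splits of 4 against 4 arrays allow, 0.0801 adjusted over 14 comparisons) for HGF in 2D, for 3D against 2D control, for 3D against 2D HGF and for PD-98059 in 2D, and with the same p, the smallest of 35 splits of 3 against 4, for U0126 in 2D. For HGF in 3D the exact p was 0.514. The controls did not move alike. The ACTB part alone had means of 3.52 in 2D control, 1.77 in 2D HGF, 3.57 in 3D control and 2.91 in 3D HGF. Thus the lower index with HGF in 2D came mainly from ACTB. The EEF1A1 part ran from 0.08 to 0.42 in 2D control and from 0.35 to 0.46 in 2D HGF. Between untreated cultures ACTB hardly differed, while the GAPDH part ran from 0.48 to 0.60 in 2D and from 0.98 to 1.29 in 3D.

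The replication and repair genes were lowest in untreated 2D cultures and highest in 3D cultures with HGF. The mean log2 level over the 47 tested members was 7.99 ± 0.0447 in 2D control and 9.05 ± 0.126 in 2D HGF (SD, n = 4 each). It was 9.07 ± 0.0878 in 3D control and 10.10 ± 0.205 in 3D HGF (SD, n = 4 each). With HGF and an inhibitor it was 9.07 ± 0.106 (SD, n = 4, PD-98059) and 8.77 ± 0.0498 (SD, n = 3, U0126) in 2D, and 10.02 ± 0.0881 (SD, n = 3, PD-98059) and 9.79 ± 0.0449 (SD, n = 3, U0126) in 3D. Thus 2D HGF, 2D HGF with PD-98059 and 3D control lay within their spread of each other, and so did 3D HGF and 3D HGF with PD-98059. Among the 3D HGF arrays, replicate 1 had the lowest mean over members, 9.82, and replicates 2, 3 and 4 had 10.09, 10.22 and 10.28. The RNA-quality index of these 4 arrays was 2.46, 1.73, 1.42 and 1.09 in the same order, and its part in their member means was not tested. For 39 of the 47 members 2D control was the group with the lowest mean, and the highest mean was in 3D HGF for 22, in 3D HGF with PD-98059 for 19 and in 3D HGF with U0126 for 4. In 40 members the group means ascended from 2D control through 3D control to 3D HGF.

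**Figure D1:**
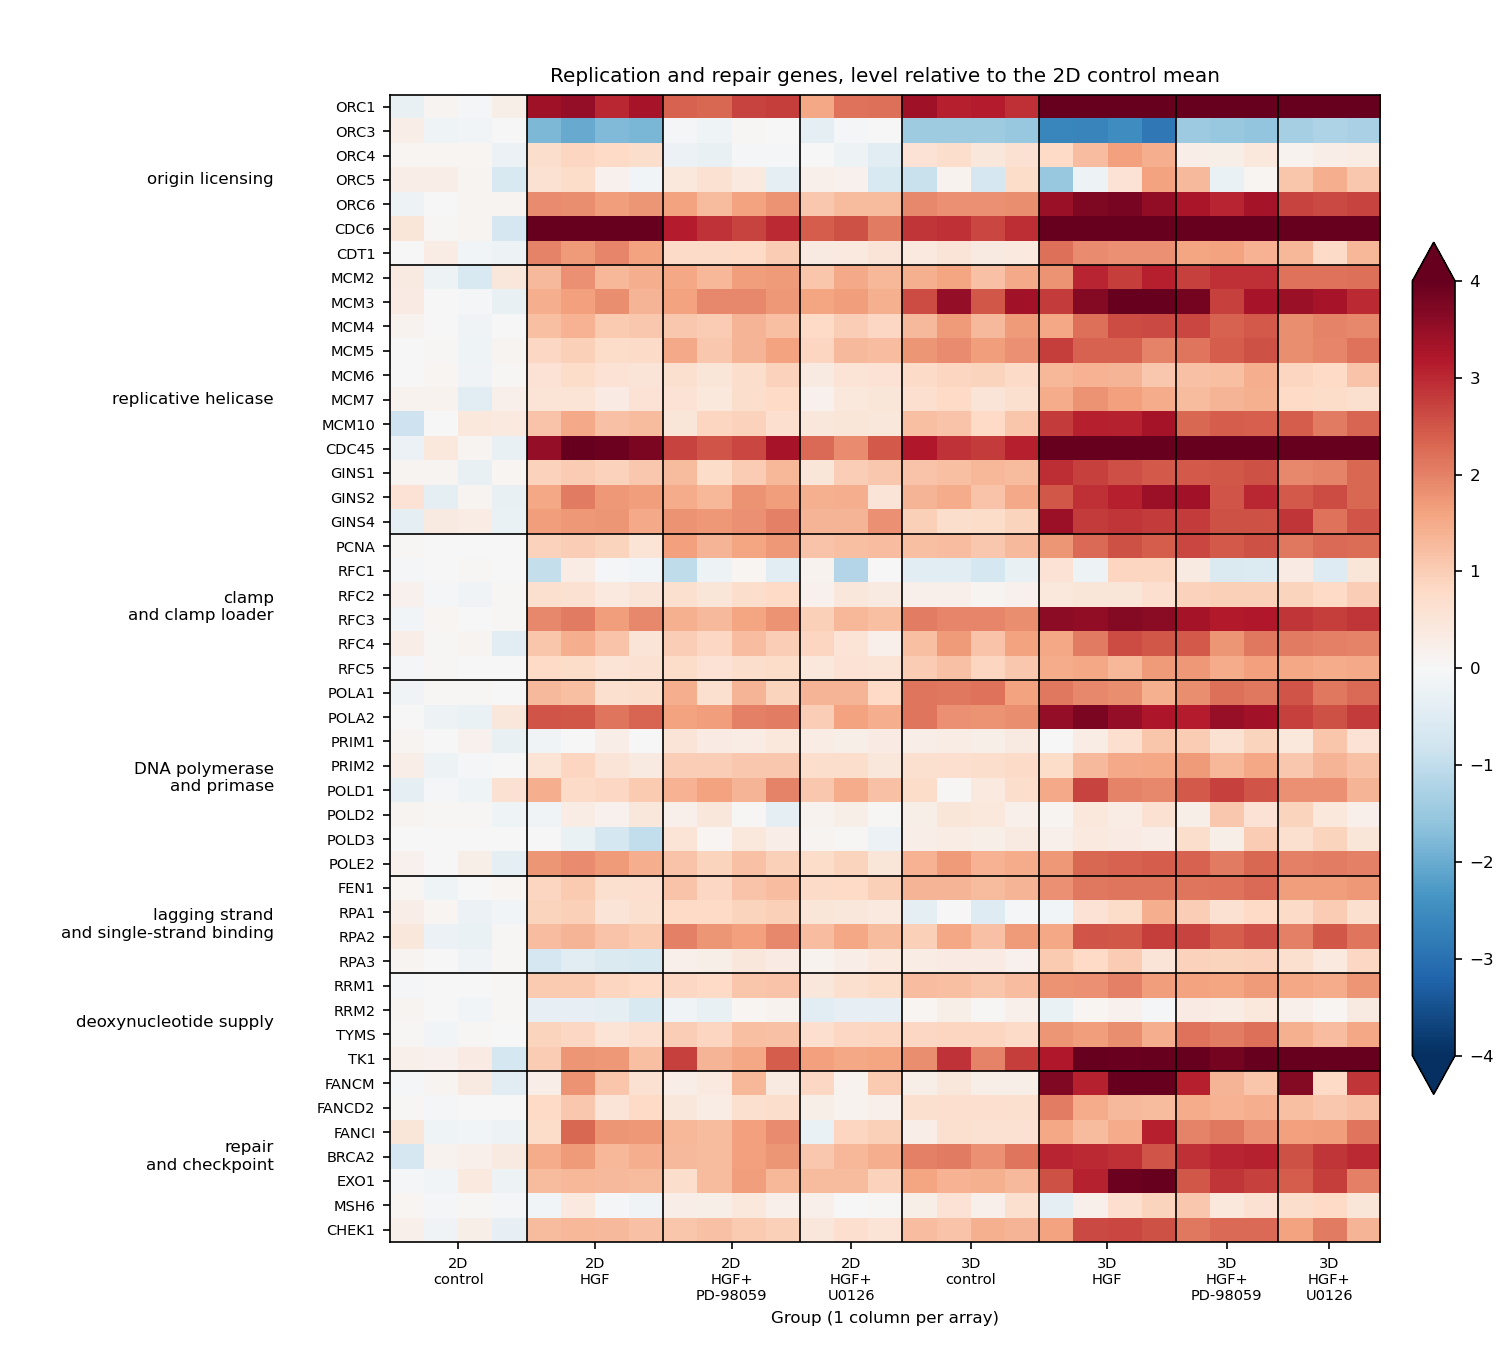
Log2 level of each of the 47 tested members (rows, by role) in each of the 29 arrays (columns, by group), minus the gene's mean over the 4 arrays of 2D control. Colours end at 4 log2 units in either direction, red is higher and blue lower. Most rows are red outside 2D control and darkest in the 3D HGF groups, while ORC3 is blue in 2D HGF and in every 3D group.

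With HGF in 2D, 37 of 47 members rose (78.7%) and 4 fell (8.51%), with a median difference of 0.96, against a background of 26.3% of all tested probe sets that rose and 29.2% that fell. In 3D with HGF, 39 rose (83%) and 1, ORC3, fell (2.13%), with a median difference of 0.90, against 29.4% and 32.6%. Untreated 3D against 2D cultures gave 34 members higher (72.3%) and 1, ORC3, lower, with a median of 1.07, against a background of 23.6% higher and 28.7% lower. Between the cultures given HGF, 39 members were higher in 3D and 1, ORC3, was lower, with a median of 1.1, against a background of 28.9% and 35.7%. The median over all tested probe sets lay between -0.04 and 0.00 in these 4 comparisons. The 3D and 2D control comparison shares arrays with both HGF comparisons, so the counts are given side by side.

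The filter could keep a member only because some group was high. Of the 47, 7 had at least 1 group mean below log2 5, called dim here: CDC6, CDC45, POLA1, TK1, FANCM, FANCI and EXO1. All 7 were dim in 2D control, FANCM and FANCI in 3D control too, TK1 in 2D HGF and FANCI in 2D HGF with U0126. A difference from a dim group is given without a fold, since the level there lies under the filter. Among the other 40 members, a count chosen after seeing the data, 31 rose and 4 fell with HGF in 2D, 33 rose and 1 fell with HGF in 3D, and 29 were higher and 1 lower in 3D against 2D control. Among the 14002 probe sets that were dim in no group, 26.7%, 30.1% and 23.9% were higher in these comparisons. With the RNA-quality index as a covariate the counts were 35 up and 6 down for HGF in 2D, 39 up and 1 down in 3D, and 37 up and 1 down for 3D against 2D control. Without 3D HGF replicates 1 and 4, 38 members rose and 1 fell with HGF in 3D. A bulk array cannot tell more RNA per cell from more cells in S phase.

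Origin licensing held CDC6, which rose with HGF in 2D from a dim control, and ORC3, the only one of the 47 that fell with HGF in both cultures. Of 7 tested licensing genes 5 rose in each HGF comparison (ORC1, ORC4, ORC6, CDC6 and CDT1). CDC6, which loads the helicase onto origins, was at 4.71, 4.28, 4.34 and 3.54 in the 2D control arrays, all dim, and at 8.42, 8.53, 8.36 and 8.36 in 2D HGF. It was at 7.09, 7.14, 6.87 and 7.16 in 3D control and 9.34, 9.96, 9.94 and 10.14 in 3D HGF. The 4 groups did not overlap, and untreated 3D cells lay between untreated and HGF-treated 2D cells. The difference with HGF was 4.20 ± 0.18 in 2D (adjusted p = 2.48e-16) and 2.78 ± 0.18 in 3D (6.86-fold, adjusted p = 7.71e-13), and 3D exceeded 2D control by 2.85 ± 0.18 (adjusted p = 1.32e-12). With PD-98059 added, CDC6 was at 7.35, 7.11, 6.92 and 7.20 in 2D and 9.11, 9.09 and 9.45 in 3D, and with U0126 at 6.63, 6.76 and 6.29 and 8.66, 8.71 and 8.76. Each of these groups had a mean below HGF alone and above its own control. The difference from HGF alone with PD-98059 was -1.27 ± 0.18 in 2D and -0.63 ± 0.19 in 3D (adjusted p = 1.23e-06 and 0.0108), with overlapping arrays in 3D, and with U0126 -1.85 ± 0.19 and -1.13 ± 0.19 (adjusted p = 1.03e-08 and 2.42e-05). The PD-98059 call in 3D was lost without 3D HGF with PD-98059 replicate 2 (-0.56, adjusted p = 0.0512) and when only the compared groups were fitted (adjusted p = 0.0578).

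ORC1, the largest subunit of the origin recognition complex, followed the same order. Its levels were 5.75, 6.13, 5.96 and 6.28 in 2D control, 9.41, 9.54, 9.04 and 9.32 in 2D HGF, 9.41, 9.14, 9.18 and 8.95 in 3D control and 11.39, 11.67, 11.53 and 11.21 in 3D HGF. No array of 2D control came near those of 3D control, and ORC1 had the largest of all member differences between untreated cultures, 3.14 ± 0.15 (8.83-fold, adjusted p = 9.07e-15). HGF raised it by 3.30 ± 0.15 in 2D (adjusted p = 1.14e-15) and by 2.28 ± 0.15 in 3D (adjusted p = 1.44e-12). With inhibitors it was at 8.40, 8.33, 8.74 and 8.79 (PD-98059) and 7.58, 8.22 and 8.22 (U0126) in 2D, and at 10.80, 11.09 and 11.16 and 10.17, 10.06 and 10.30 in 3D. These arrays lay below those of HGF alone in all 4 cases, with differences of -0.76 ± 0.15, -1.32 ± 0.16, -0.43 ± 0.16 and -1.27 ± 0.16 in the same order (adjusted p = 0.000135, 1.96e-07, 0.0361 and 4.11e-07). The smallest of these, PD-98059 in 3D, was lost with 3D HGF replicates 2 or 3 or PD-98059 replicates 1 or 2 left out (adjusted p 0.104, 0.0751, 0.177 and 0.0553), without the filter (0.0917), in the compared groups alone (0.0588), and with the mean of its probe sets (0.0587) or the one of largest variance (0.23).

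ORC3, a subunit of the same complex, moved the other way. It was at 13.23, 12.81, 12.86 and 13.00 in 2D control and at 11.17, 10.96, 11.22 and 11.15 in 2D HGF. In 3D it was at 11.56, 11.55, 11.54 and 11.44 in control and 10.36, 10.33, 10.49 and 10.12 in HGF. With HGF the difference was -1.85 ± 0.09 in 2D (3.6-fold lower, adjusted p = 3.95e-15) and -1.20 ± 0.09 in 3D (adjusted p = 1.7e-11), and that of 3D from 2D control was -1.45 ± 0.09 (adjusted p = 1.17e-12). With PD-98059 the levels were 12.89, 12.81, 13.02 and 12.98 in 2D and 11.51, 11.46 and 11.39 in 3D, and with U0126 12.60, 12.93 and 12.96 in 2D and 11.64, 11.73 and 11.67. In 2D these ranges overlap those of untreated cells, and in both cultures they lie above every array of HGF alone. The inhibitor differences were 1.80 ± 0.09, 1.71 ± 0.10, 1.13 ± 0.10 and 1.36 ± 0.10 (PD-98059 and U0126 in 2D, then in 3D), each with an adjusted p of 6.54e-10 or less. Another ORC3 probe set fell with HGF in 2D (-2.56, adjusted p = 6.88e-08) and did not pass in 3D (-0.64, adjusted p = 0.0716). Among the other licensing genes, ORC4 fell with each inhibitor in each culture, with differences of -0.92 ± 0.13 and -0.98 ± 0.14 in 2D and -0.97 ± 0.14 and -1.04 ± 0.14 in 3D (PD-98059 then U0126). Its means with an inhibitor, 8.67 and 8.61 in 2D and 9.14 and 9.07 in 3D, lay below the controls of the same culture, 8.83 and 9.43. None of these differences from control passed. ORC5 varied widely between arrays, with an SD of 1.32 in 3D HGF, and passed in neither HGF comparison (0.35 ± 0.46 in 2D and 0.29 ± 0.46 in 3D).

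**Figure D2:**
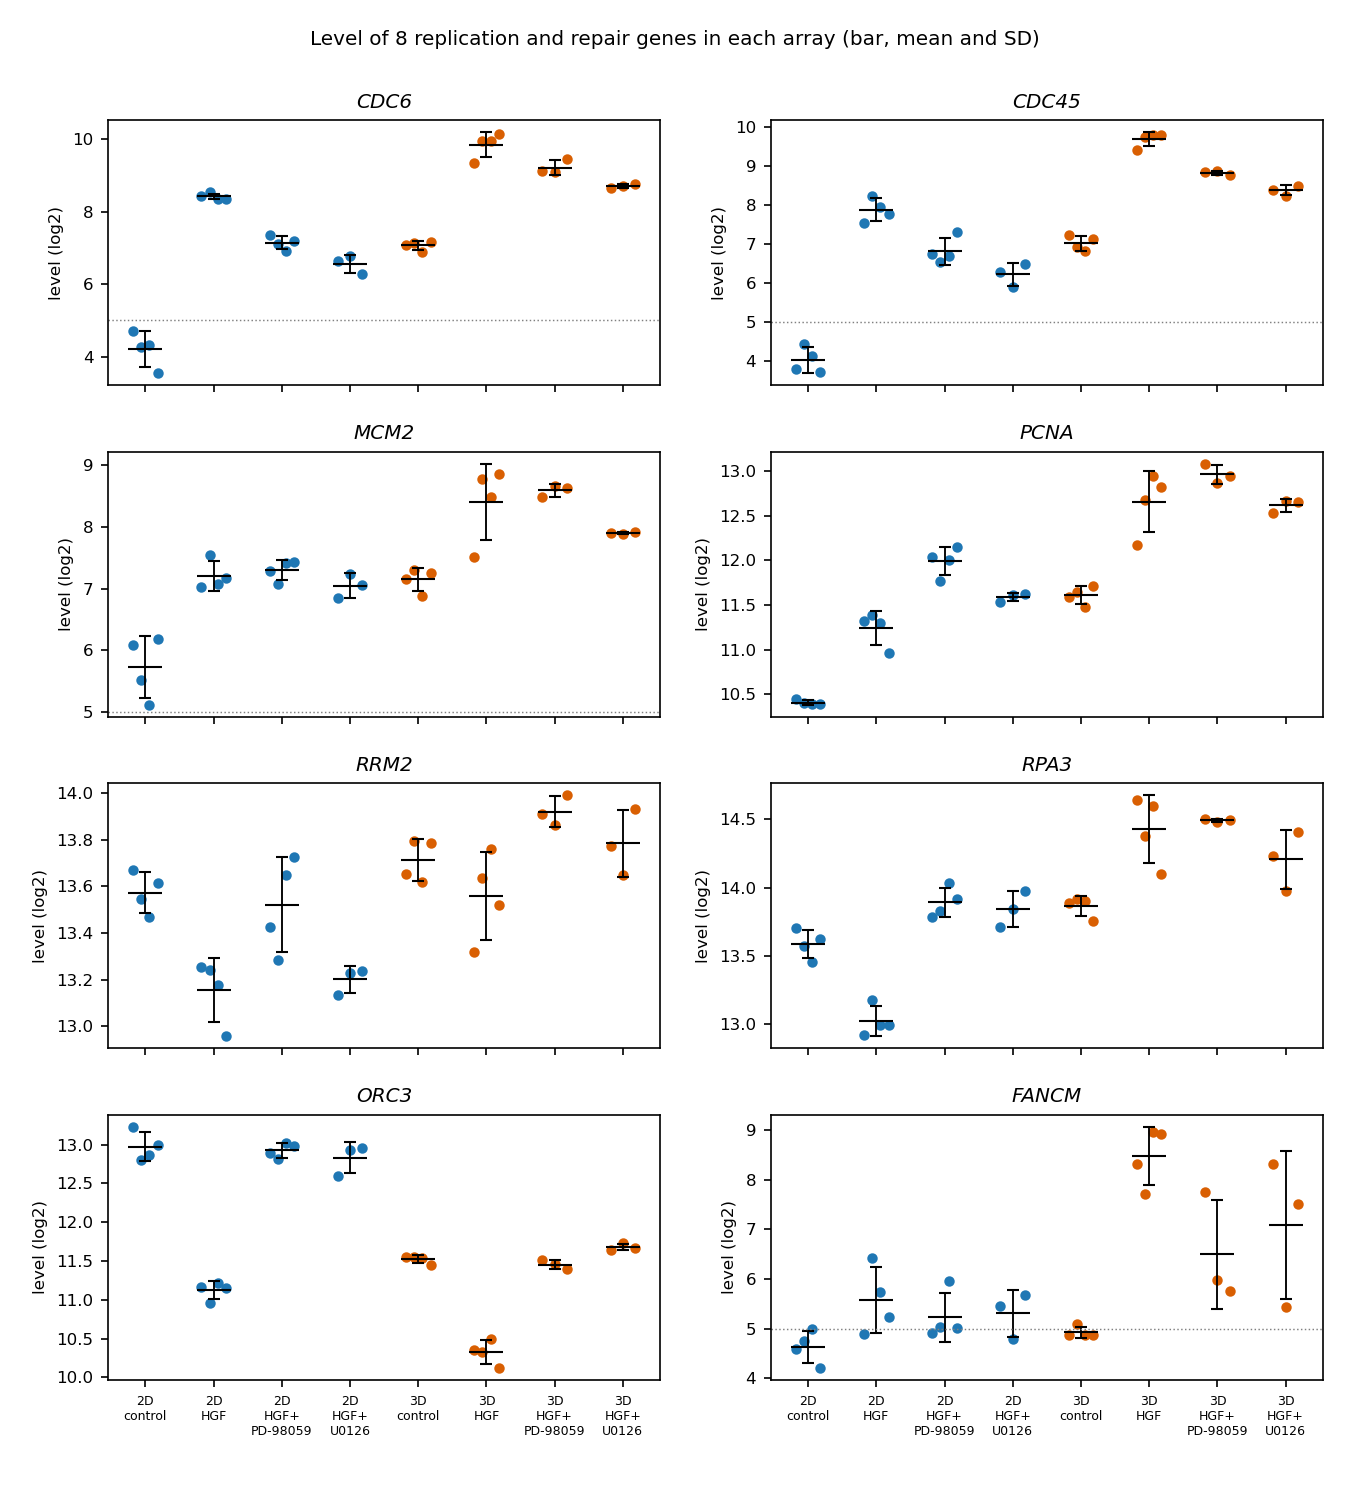
Log2 level of 8 members in each array (points, blue for 2D and orange for 3D), with the group mean and SD (black bars); the dotted line is log2 5 where it falls in the range. CDC6 and CDC45 step down with each inhibitor, PCNA and MCM2 do not fall with PD-98059, RPA3 and RRM2 are lowest in 2D HGF, and ORC3 is lowest with HGF in each culture.

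All 11 tested genes of the replicative helicase rose with HGF in 2D and in 3D and were higher in 3D than in 2D, both untreated and with HGF. Another probe set of MCM3 and of MCM7 did not pass with HGF in 2D (-0.18 and -0.17, adjusted p = 0.637 and 0.411). CDC45, part of the active helicase, stood at 3.78, 4.43, 4.11 and 3.71 in 2D control (dim), 7.53, 8.23, 7.93 and 7.76 in 2D HGF, 7.21, 6.91, 6.80 and 7.13 in 3D control and 9.41, 9.72, 9.79 and 9.78 in 3D HGF. The groups did not overlap in any of the comparisons, and the HGF difference was 3.86 ± 0.18 in 2D (adjusted p = 8.11e-16) and 2.66 ± 0.18 in 3D (6.34-fold, adjusted p = 1.04e-12). Between untreated cultures it was 3.01 ± 0.18 (adjusted p = 2.86e-13). With inhibitors CDC45 stood at 6.72, 6.52, 6.68 and 7.31 (PD-98059) and 6.27, 5.89 and 6.47 (U0126) in 2D, and at 8.84, 8.86 and 8.76 and 8.37, 8.23 and 8.49 in 3D. All of these arrays were below HGF alone, with differences of -1.06 ± 0.18, -1.65 ± 0.19, -0.86 ± 0.19 and -1.31 ± 0.19 in that order (adjusted p = 1.26e-05, 4.73e-08, 0.0006 and 2.13e-06), and above untreated cells. MCM10, which helps to activate the helicase, fell with both inhibitors in both cultures too, with differences between -0.80 and -0.55. The PD-98059 call of MCM10 in 2D was lost without 2D HGF replicate 2 or PD-98059 replicate 1 (adjusted p 0.055 and 0.0549) and with the RNA-quality covariate (0.081).

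The genes of the MCM ring rose with HGF, and few of them passed with an inhibitor. MCM2, a ring subunit, was at 6.09, 5.52, 5.12 and 6.18 in 2D control and 7.03, 7.55, 7.07 and 7.17 in 2D HGF, and at 7.16, 7.30, 6.89 and 7.26 in 3D control and 7.51, 8.78, 8.49 and 8.85 in 3D HGF. The rise with HGF was 1.48 ± 0.22 in 2D (adjusted p = 3.51e-06) and 1.26 ± 0.22 in 3D (adjusted p = 2.73e-05), with no overlap of the arrays, although 3D HGF replicate 1 lay well below the other 3. With PD-98059 it was at 7.28, 7.07, 7.41 and 7.43 in 2D and 8.48, 8.67 and 8.64 in 3D, inside or beside the range of HGF alone, and the differences, 0.10 ± 0.22 and 0.18 ± 0.24, did not pass (adjusted p = 0.76 and 0.589). With U0126 it was at 6.84, 7.24 and 7.07 in 2D and 7.90, 7.89 and 7.92 in 3D, and the differences, -0.16 ± 0.24 and -0.51 ± 0.24, did not pass either (adjusted p = 0.637 and 0.0877). Of the 6 ring genes MCM2 to MCM7, none fell with PD-98059 in either culture, and MCM5 rose in 2D (0.57 ± 0.13, adjusted p = 0.000852). With U0126 none fell in 2D, and MCM5, MCM6 and MCM7 fell in 3D, with differences of -0.36 ± 0.15, -0.35 ± 0.10 and -0.89 ± 0.13. The MCM5 call there was lost in 12 of 20 other settings, among them those without 3D HGF replicate 1, 2 or 3 or U0126 replicate 1 or 2 (adjusted p 0.176, 0.0628, 0.0601, 0.164 and 0.106).

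MCM3, another ring subunit, had one of the 3 largest differences between untreated cultures. Its arrays were at 5.33, 5.01, 4.98 and 4.72 in 2D control and 7.61, 8.53, 7.50 and 8.35 in 3D control, a difference of 2.99 ± 0.30 (7.94-fold, adjusted p = 5.25e-09). With HGF they were at 6.46, 6.65, 6.87 and 6.37 in 2D and 7.81, 8.69, 9.27 and 9.84 in 3D. Of the 3D HGF arrays, replicate 1 lay inside the range of 3D control and the other 3 above it, and the rise there, 0.90 ± 0.30 (adjusted p = 0.00994), was lost without 3D HGF replicate 4 (0.59, adjusted p = 0.0696) and in the compared groups alone (adjusted p = 0.0986). In 2D the rise was 1.58 ± 0.30 (adjusted p = 5.86e-05). With inhibitors MCM3 was at 6.63, 6.93, 6.93 and 6.74 and 6.59, 6.69 and 6.43 in 2D and at 8.85, 7.75 and 8.31 and 8.46, 8.29 and 7.98 in 3D (PD-98059 then U0126), and none of the 4 differences passed. GINS1, GINS2 and GINS4, which bind CDC45 and the ring, rose with HGF by 0.98 to 2.15 over both cultures. Of these, GINS1 and GINS4 fell with U0126 in 3D (-0.61 ± 0.15 and -0.45 ± 0.18), and GINS2 fell with U0126 in 2D (-0.63 ± 0.24). The GINS4 call was lost without 3D HGF replicate 1 or U0126 replicate 2 or 3, with a smallest difference of -0.28 (adjusted p 0.158, 0.258 and 0.0802). That of GINS2 was lost without 2D HGF replicate 2 or 3 or U0126 replicate 3, with a smallest difference of -0.33 (adjusted p 0.104, 0.0508 and 0.314), and with the RNA-quality covariate it was -0.28 (0.344).

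The clamp and its loader rose with HGF, 5 of 6 genes in 2D and 6 of 6 in 3D. PCNA, the sliding clamp, was at 10.44, 10.40, 10.39 and 10.40 in 2D control, 11.32, 11.38, 11.30 and 10.96 in 2D HGF, 11.59, 11.65, 11.47 and 11.71 in 3D control and 12.17, 12.68, 12.95 and 12.82 in 3D HGF. HGF raised it by 0.84 ± 0.12 in 2D (1.78-fold, adjusted p = 9.68e-07) and 1.05 ± 0.12 in 3D (2.07-fold, adjusted p = 1.81e-08), and 3D exceeded 2D control by 1.20 ± 0.12 (adjusted p = 3.88e-09), with no overlap in any of these. With HGF and PD-98059 PCNA was at 12.04, 11.77, 12.00 and 12.15 in 2D, above every array of HGF alone, and at 13.08, 12.86 and 12.94 in 3D. With U0126 it was at 11.53, 11.61 and 11.62 in 2D and 12.53, 12.67 and 12.65 in 3D. In 2D PCNA rose further with PD-98059, by 0.75 ± 0.12 (adjusted p = 5.27e-06), and with U0126, by 0.35 ± 0.13 (adjusted p = 0.0238), although the second call was lost without 2D HGF replicate 4 or without U0126 replicate 2 or 3 (adjusted p 0.106, 0.0618 and 0.0699) and without the filter (0.0597). In 3D neither difference passed (0.31 ± 0.13 and -0.04 ± 0.13). The RNA-quality index was 1.36 and 1.31 in 2D with PD-98059 and U0126, against 0.838 with HGF alone.

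RFC3, a subunit of the clamp loader, fell with both inhibitors in both cultures. Its levels were 8.05, 8.26, 8.16 and 8.21 in 2D control, 10.11, 10.25, 9.85 and 10.08 in 2D HGF, 10.21, 10.11, 10.11 and 10.02 in 3D control and 11.73, 11.72, 11.84 and 11.77 in 3D HGF, a rise with HGF of 1.90 ± 0.10 in 2D (adjusted p = 5.88e-15) and 1.66 ± 0.10 in 3D (adjusted p = 7.61e-14). The 2D HGF and 3D control arrays overlapped each other, and both stood clear of 2D control and of 3D HGF. Its levels with PD-98059 were 9.60, 9.47, 9.75 and 9.97 in 2D and 11.50, 11.35 and 11.37 in 3D, with differences of -0.37 ± 0.10 and -0.36 ± 0.10 (adjusted p = 0.00187 and 0.00587), and the second call was lost with its probe set of largest variance (adjusted p = 0.0774). With U0126 it was at 9.13, 9.51 and 9.37 and 11.04, 10.94 and 11.04, with differences of -0.73 ± 0.10 and -0.76 ± 0.10 (adjusted p = 1.28e-06 and 8.54e-07). RFC4 and RFC5 rose with HGF in both cultures and passed in no inhibitor comparison. RFC2 rose with HGF and rose again with each inhibitor in 3D (0.42 ± 0.09 with PD-98059 and 0.36 ± 0.09 with U0126), and RFC1 rose with HGF only in 3D (0.98 ± 0.30, against -0.20 ± 0.30 in 2D). The other RFC1 probe sets differed. One passed in neither culture (-0.11 in 3D, adjusted p = 0.576). Another rose in 3D (0.69, adjusted p = 0.0124) and fell in 2D (-0.56, adjusted p = 0.0424), and the last rose only in 3D (0.67, adjusted p = 0.0448).

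Among 8 tested polymerase and primase genes, 5 rose and POLD3 fell with HGF in 2D, and 4 rose and none fell in 3D. POLA2, the second subunit of polymerase alpha, was at 6.59, 6.35, 6.29 and 7.0 in 2D control, 9.06, 9.05, 8.70 and 8.88 in 2D HGF, 8.70, 8.40, 8.36 and 8.42 in 3D control and 10.09, 10.34, 10.09 and 9.78 in 3D HGF. HGF and control arrays did not overlap in either culture, and HGF raised POLA2 by 2.37 ± 0.16 in 2D (5.15-fold, adjusted p = 1.32e-12) and 1.61 ± 0.16 in 3D (3.04-fold, adjusted p = 1.71e-09). PD-98059 with HGF put it at 8.16, 8.24, 8.58 and 8.62 in 2D and 9.69, 10.04 and 9.91 in 3D, and with U0126 at 7.55, 8.17 and 8.03 and 9.29, 9.12 and 9.37. It fell with PD-98059 in 2D (-0.52 ± 0.16, adjusted p = 0.00631) but not past the threshold in 3D (-0.20 ± 0.17, adjusted p = 0.384), and with U0126 in both (-1.01 ± 0.17 and -0.82 ± 0.17, adjusted p = 1.62e-05 and 0.000243). The 2D call with PD-98059 was lost with the probe set of largest variance (adjusted p = 0.093).

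POLD1, the catalytic subunit of polymerase delta, was at 5.08, 5.39, 5.30 and 6.07 in 2D control, 6.92, 6.22, 6.28 and 6.51 in 2D HGF, 6.21, 5.51, 5.85 and 6.17 in 3D control and 6.97, 8.17, 7.44 and 7.39 in 3D HGF. The untreated cultures overlapped and did not differ past the threshold (0.47 ± 0.23, adjusted p = 0.0876), while HGF raised POLD1 by 1.02 ± 0.23 in 2D and 1.56 ± 0.23 in 3D (adjusted p = 0.000486 and 1.88e-06). With PD-98059 it was at 6.84, 7.07, 6.81 and 7.45 in 2D and 7.92, 8.19 and 7.98 in 3D, and with U0126 at 6.54, 6.94 and 6.64 and 7.30, 7.30 and 6.83. The PD-98059 arrays overlapped those of HGF alone in both cultures. A rise of 0.56 ± 0.23 with PD-98059 in 2D (adjusted p = 0.0443) was lost in 10 of 21 other settings, among them those without 2D HGF replicate 2, 3 or 4 or PD-98059 replicate 2 or 4 (adjusted p 0.125, 0.112, 0.0682, 0.0761 and 0.16).

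POLD3, an accessory subunit of polymerase delta, went against most members in 2D. It was at 8.33, 8.28, 8.31 and 8.32 in 2D control and at 8.29, 8.03, 7.60 and 7.33 in 2D HGF, where 1 array lay inside the control range. The fall, -0.50 ± 0.16 (adjusted p = 0.0115), was lost without 2D HGF replicate 4 (adjusted p = 0.077) and with the probe set of largest variance (-0.98, adjusted p = 0.0654). In 3D it was at 8.58, 8.59, 8.55 and 8.66 in control and 8.52, 8.69, 8.65 and 8.57 in HGF, a difference of 0.01 ± 0.16. The probe set of largest variance rose there by 1.54 (adjusted p = 0.00412), so the result in 3D depends on the probe set. PD-98059 with HGF put it at 8.86, 8.38, 8.72 and 8.57 in 2D and 9.02, 8.54 and 9.33 in 3D, and with U0126 at 8.43, 8.37 and 8.07 and 8.96, 9.20 and 8.79. In 2D it rose with PD-98059 (0.82 ± 0.16, adjusted p = 0.000124). The rise with U0126 in 2D (0.48 ± 0.18, adjusted p = 0.0261) overlapped HGF alone and was lost in 7 of 20 other settings, among them those without 2D HGF replicate 3 or 4 or U0126 replicate 1 or 2 (adjusted p 0.0803, 0.13, 0.107 and 0.0823). POLE2, a subunit of polymerase epsilon, rose with HGF by 1.71 ± 0.14 in 2D and 0.72 ± 0.14 in 3D, and it fell with both inhibitors in 2D (-0.67 ± 0.14 and -1.01 ± 0.15) but with neither in 3D. PRIM1 and POLD2 passed in neither HGF comparison. Another POLD2 probe set rose by 0.37 in 2D and 0.45 in 3D (adjusted p = 0.0229 and 0.00473), and its remaining ones passed in neither.

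Of the genes that bind single strands and finish the lagging strand, FEN1, RPA1 and RPA2 rose with HGF in both cultures. RPA2, the middle subunit of replication protein A, was at 6.95, 6.27, 6.22 and 6.56 in 2D control, 7.72, 7.87, 7.64 and 7.54 in 2D HGF, 7.44, 8.04, 7.69 and 8.19 in 3D control and 8.04, 9.03, 8.99 and 9.26 in 3D HGF. In 3D the lowest HGF array, replicate 1, lay inside the control range, and the rise was 0.99 ± 0.20 (adjusted p = 0.000136). In 2D the groups stood apart, by 1.20 ± 0.20 (adjusted p = 1.55e-05). With PD-98059 RPA2 was at 8.52, 8.26, 8.13 and 8.42 in 2D, above HGF alone by 0.64 ± 0.20 (adjusted p = 0.00978), and at 9.19, 8.93 and 9.09 in 3D. With U0126 it was at 7.75, 8.05 and 7.77 and 8.51, 8.97 and 8.65, and neither difference passed.

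RPA3, the small subunit of the same complex, was the only member called in opposite directions by HGF in the 2 cultures. It was at 13.70, 13.57, 13.46 and 13.62 in 2D control and 12.92, 13.18, 13.00 and 12.99 in 2D HGF, a difference of -0.56 ± 0.10 (adjusted p = 2.39e-05). It was at 13.89, 13.92, 13.90 and 13.76 in 3D control and 14.64, 14.38, 14.60 and 14.10 in 3D HGF, a rise of 0.56 ± 0.10 (adjusted p = 2.1e-05). The arrays did not overlap in either culture, and the difference between the effects was 1.13 ± 0.14 (adjusted p = 3.06e-07). The rise in 3D was lost with the probe set of largest variance (0.30, adjusted p = 0.126). With inhibitors RPA3 was at 13.79, 13.83, 14.03 and 13.92 (PD-98059) and 13.71, 13.84 and 13.97 (U0126) in 2D, above HGF alone by 0.87 ± 0.10 and 0.82 ± 0.11 (adjusted p = 3.52e-08 and 3.7e-07). In 3D it was at 14.50, 14.48 and 14.50 and 14.23, 13.98 and 14.41, and neither difference passed. The small excess of 3D over 2D control, 0.28 ± 0.10 (adjusted p = 0.0202), was lost without 3D control replicate 2 or 2D control replicate 3 (adjusted p 0.0502 and 0.0706) and with the RNA-quality covariate (adjusted p = 0.315).

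The enzymes of deoxynucleotide supply split. RRM1, TYMS and TK1 rose with HGF in both cultures, and RRM2 did not. The other tested RRM1 probe sets rose in 3D and did not pass in 2D (0.55 and 0.52, adjusted p = 0.0687 and 0.122). RRM2, the small subunit of ribonucleotide reductase and a standard S phase marker, was at 13.67, 13.54, 13.47 and 13.61 in 2D control and 13.25, 13.24, 13.18 and 12.96 in 2D HGF, a difference of -0.42 ± 0.09 (1.33-fold lower, adjusted p = 0.000527) without overlap. In 3D it was at 13.65, 13.79, 13.62 and 13.78 in control and 13.32, 13.64, 13.76 and 13.52 in HGF, and the difference, -0.15 ± 0.09, did not pass (adjusted p = 0.162). All 29 arrays lay between 12.96 and 13.99, so the whole range of RRM2 was about 1 log2 unit. Its levels with PD-98059 were 13.43, 13.28, 13.65 and 13.73 in 2D and 13.91, 13.86 and 13.99 in 3D, above HGF alone by 0.36 ± 0.09 and 0.36 ± 0.10 (adjusted p = 0.00201 and 0.00553), and the 3D call was lost without 3D HGF replicates 1 and 4 (adjusted p = 0.123) and with the probe set of largest variance (0.0948). With U0126 it was at 13.13, 13.23 and 13.24 and 13.77, 13.65 and 13.93, and neither difference passed.

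TK1, the thymidine kinase of the salvage pathway, had dim levels in 2D control, 3.70, 3.64, 3.81 and 2.78, and was at 4.50, 5.25, 5.21 and 4.68 in 2D HGF, a group whose mean of 4.91 was also dim. It was at 5.36, 6.38, 5.47 and 6.26 in 3D control and 6.69, 7.69, 7.42 and 8.17 in 3D HGF. Untreated 2D arrays lay below untreated 3D arrays, and likewise with HGF, with a 3D minus 2D difference of 2.38 ± 0.31 untreated (adjusted p = 4.97e-07) and 2.58 ± 0.31 with HGF (adjusted p = 6.29e-08). HGF raised TK1 by 1.43 ± 0.31 in 2D and 1.63 ± 0.31 in 3D (adjusted p = 0.000329 and 6.05e-05). With PD-98059 it was at 6.22, 4.83, 5.04 and 5.90 and 7.75, 7.30 and 7.51, and with U0126 at 5.13, 5.02 and 5.07 and 7.91, 7.54 and 7.59 (2D then 3D). No inhibitor difference passed. TYMS, thymidylate synthase, rose with PD-98059 in both cultures (0.32 ± 0.09 in 2D and 0.46 ± 0.10 in 3D) and fell with U0126 in 3D (-0.27 ± 0.10, adjusted p = 0.0209), a call lost in 7 of 20 other settings, among them those without 3D HGF replicate 1 or 3 or U0126 replicate 2 (adjusted p 0.0504, 0.0784 and 0.157).

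Among 7 tested repair and checkpoint genes, 5 rose with HGF in 2D and 6 in 3D. FANCM, a DNA translocase of the Fanconi anaemia pathway, was at 4.59, 4.74, 4.99 and 4.21 in 2D control and 4.90, 6.42, 5.74 and 5.23 in 2D HGF, and at 4.87, 5.10, 4.88 and 4.87 in 3D control and 8.32, 7.72, 8.95 and 8.92 in 3D HGF. The 3D HGF arrays stood far above those of 3D control and 2D HGF, with a difference of 3.55 ± 0.47 (adjusted p = 3.06e-07) from a dim control, and in 2D the groups overlapped (0.94 ± 0.47, adjusted p = 0.093). With PD-98059 FANCM was at 4.91, 5.03, 5.96 and 5.0 in 2D and 7.75, 5.98 and 5.75 in 3D, and with U0126 at 5.46, 4.78 and 5.68 and 8.31, 5.43 and 7.51. In 3D the inhibitor arrays spread from 5.75 to 7.75 and from 5.43 to 8.31, and both ranges reached that of HGF alone. The falls there were -1.98 ± 0.50 with PD-98059 (adjusted p = 0.00235) and -1.39 ± 0.50 with U0126 (adjusted p = 0.0239). The first was lost with the probe set of largest variance (-0.21, adjusted p = 0.508). The second was lost in 7 of 20 other settings, among them those without 3D HGF replicate 3 or 4 (adjusted p 0.0654 and 0.0588) or without U0126 replicate 2 (-0.57, adjusted p = 0.35). The other 2 FANCM probe sets differed in 2D: 1 of them rose with HGF by 2.04 in 3D and 2.20 in 2D (adjusted p = 7.06e-09 and 2.4e-09), and the other by 1.89 in 3D (adjusted p = 1.67e-06) and by a difference of 0.36 in 2D that did not pass (adjusted p = 0.293). All 3 rose in 3D, and 1 of 3 rose in 2D.

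FANCI, which forms a complex with FANCD2, was at 4.28, 3.63, 3.67 and 3.58 in 2D control (dim), 4.51, 6.09, 5.57 and 5.54 in 2D HGF, 4.05, 4.44, 4.40 and 4.41 in 3D control (dim) and 5.33, 5.05, 5.27 and 6.90 in 3D HGF, where replicate 4 lay above the other 3. It rose with HGF by 1.63 ± 0.33 in 2D and 1.31 ± 0.33 in 3D (adjusted p = 0.000161 and 0.00132), without overlap of the arrays, and the untreated cultures did not differ past the threshold (0.53 ± 0.33). Its levels with PD-98059 were 5.12, 5.05, 5.44 and 5.68 and 5.76, 5.91 and 5.61, and with U0126 3.52, 4.65 and 4.75 and 5.44, 5.46 and 5.94 (2D then 3D). Only the fall with U0126 in 2D passed (-1.12 ± 0.36, adjusted p = 0.0114), and it was lost without U0126 replicate 1 (-0.72, adjusted p = 0.129), in the compared groups alone (0.0549) and with the RNA-quality covariate (0.0913). FANCD2 rose with HGF in both cultures (0.80 ± 0.12 and 0.87 ± 0.12), BRCA2, a gene of homologous recombination, by 1.49 ± 0.17 and 0.86 ± 0.17, the nuclease EXO1 by 1.28 ± 0.26 and 2.05 ± 0.26, and the checkpoint kinase CHEK1 by 1.26 ± 0.18 and 1.08 ± 0.18 (2D then 3D). The differences of the mismatch repair gene MSH6 were 0.02 ± 0.18 and -0.06 ± 0.18, and neither passed. The other FANCD2 probe set rose with HGF by 2.05 in 2D (adjusted p = 1.79e-09) and did not pass in 3D (0.40, adjusted p = 0.0817). CHEK1 fell with U0126 in both cultures (-0.71 ± 0.19 and -0.69 ± 0.19) and passed with PD-98059 in neither (-0.19 ± 0.18 and -0.16 ± 0.19).

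The HGF differences of the 2 cultures, which share no arrays, were set against each other. Across the 47 members Pearson's r was 0.763 and Spearman's rho 0.781, a description over genes that share the array, the probe sets and their base composition. In both cultures 36 members rose, and RPA3 alone had opposite calls. The difference between the effects passed in 15 members, 7 higher in 3D (14.9%, against 22% of all tested probe sets) and 8 lower in 3D (17%, against 26.3%), so the share was not above the background in either direction. With single arrays left out it passed in 11 to 16 members. Members with a smaller rise in 3D were CDC6 (-1.42 ± 0.25, adjusted p = 5.45e-05), CDC45 (-1.19 ± 0.25, adjusted p = 0.000298), ORC1 (-1.02 ± 0.22), POLE2 (-0.99 ± 0.20) and POLA2 (-0.76 ± 0.22). POLA1 (-1.14 ± 0.27) rose in 2D by 0.96 ± 0.19 and did not pass in 3D, where its difference was -0.19 ± 0.19. In the other direction stood FANCM (2.61 ± 0.66, adjusted p = 0.00201), RFC1 (1.18 ± 0.43), RPA3 (1.13 ± 0.14) and MCM10 (0.73 ± 0.26). The RFC1 call was lost without 2D HGF replicate 1, 3D HGF replicate 3 or 4 or 3D control replicate 3 (adjusted p 0.0502 to 0.0735). That of MCM10 was lost without 2D control replicate 3 or 4, 3D HGF replicate 4 or 3D control replicate 3 (adjusted p 0.0508 to 0.0648). The FANCM, ORC1 and RRM1 values depend on the probe set: with the one of largest variance they were -0.16, 1.64 and 1.36 in place of 2.61, -1.02 and -0.30. With that choice POLA2 (-0.58, adjusted p = 0.157) and ORC3 (0.35, adjusted p = 0.427) no longer passed.

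**Figure D3:**
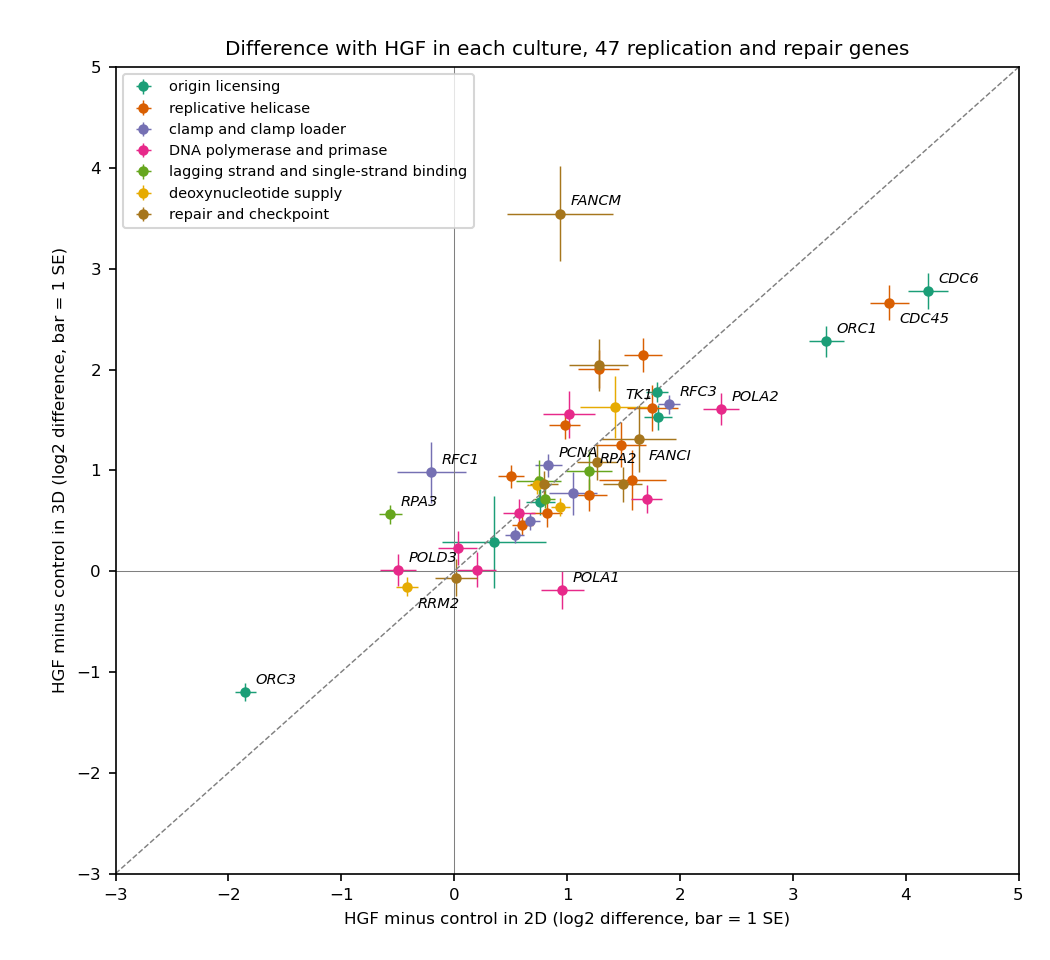
Log2 difference of HGF against control in 2D (x axis) and in 3D (y axis) for the 47 tested members, coloured by role, with bars of 1 SE and a dashed line of equality. Most points lie above 0 on both axes; ORC3 lies in the lower left, RPA3 is below 0 in 2D and above 0 in 3D, and CDC6, CDC45 and ORC1 lie below the line and FANCM above it.

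Licensing genes fell with both inhibitors, 4 of 7 with PD-98059 in 2D and 5 of 7 in the other 3 comparisons, while ORC3 rose. Set against HGF alone in 3D, PD-98059 lowered 10 of 47 members (21.3%, against 15.4% of all tested probe sets) and raised 4 (8.51%, against 26.6%), and U0126 lowered 21 (44.7%, against 23.8%) and raised 2 (4.26%, against 25.4%). In 2D, PD-98059 lowered 9 (19.1%, against 24.9%) and raised 11 (23.4%, against 27.6%), and U0126 lowered 15 (31.9%, against 24.3%) and raised 4 (8.51%, against 25.8%). The member medians were 0.03, -0.35, 0.03 and -0.16 in the same order. Among the 40 members dim in no group, U0126 lowered 17 in 3D and 12 in 2D (background 25% and 24.8% of probe sets dim in no group), and PD-98059 lowered 6 and 7 (15.2% and 25.3%). The share of these 40 that fell lay above the background with U0126 in 3D, and near or below it in the other 3 comparisons. ORC1, ORC4, CDC6, CDT1, MCM10, CDC45 and RFC3 fell in all 4 comparisons, and ORC3 rose in all 4. CDT1, the partner of CDC6 in loading the helicase, had differences of -0.96 ± 0.12 and -1.39 ± 0.13 in 2D and of -0.41 ± 0.13 and -0.80 ± 0.13 in 3D (PD-98059 then U0126). The PD-98059 call in 3D was lost in 5 of 20 other settings, among them those without 3D HGF replicate 1 or PD-98059 replicate 3 (adjusted p 0.0571 and 0.0818). Without 3D HGF replicates 1 and 4, PD-98059 in 3D lowered 12 members and raised 3, and U0126 lowered 22 and raised 2. With the RNA-quality covariate PD-98059 in 2D lowered 9 and raised 18, and U0126 in 2D lowered 13 and raised 9. Fitted on the compared groups alone, U0126 in 3D gave 14 calls in place of 23.

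The comparisons with HGF alone and with control share arrays, and their values stand side by side. With HGF and PD-98059, 37 members were above control in 3D and 0 below (background 21.6% and 17.2%), and 37 above and 0 below in 2D (12.5% and 13%). With HGF and U0126, 32 were above control in 3D and 0 below (14.2% and 19.6%), and 30 above and 1 below, RRM2, in 2D (8.45% and 8.58%). The RRM2 call was lost without U0126 replicate 1 (adjusted p = 0.0569) and with the probe set of largest variance (0.184). The medians were 0.92, 1.06, 0.63 and 0.68. CDC6, for example, stayed above control by 2.93 ± 0.18 with PD-98059 and 2.34 ± 0.19 with U0126 in 2D, and by 2.15 ± 0.19 and 1.64 ± 0.19 in 3D.

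Both inhibitors act on MEK, and their groups were compared directly in each culture, 2 comparisons with doses not stated, so a difference in response cannot be told apart from one in dose. In 3D, U0126 gave lower levels than PD-98059 for 9 members and higher levels for 0 (background 8.82% and 2.99%): ORC1 (-0.84 ± 0.18, adjusted p = 0.00238), ORC6, MCM6, MCM7, RFC3, POLA2, POLD1 (-0.88 ± 0.27, adjusted p = 0.0309), FEN1 and TYMS (-0.74 ± 0.10, adjusted p = 2.82e-05). The POLD1 call was lost without any 1 of the 3 U0126 arrays or of PD-98059 replicates 2 and 3 (adjusted p 0.0548 to 0.11), and the POLA2 call without U0126 replicate 1 or 2 or PD-98059 replicate 2 or 3 (0.0663 to 0.111). The MCM6 call was lost without U0126 replicate 1 or 2 or PD-98059 replicate 2 or 3 (0.0621 to 0.262), and the RFC3 call without U0126 replicate 2 or PD-98059 replicate 1 or 3 (0.0525 to 0.0819). With the probe set of largest variance ORC6, RFC3 and FEN1 did not pass (adjusted p 0.602, 0.825 and 0.866). After quantile normalization the split was 8 lower and 1 higher. In the arrays of ORC1 both groups stood apart, 10.06 to 10.30 against 10.80 to 11.16. In 2D, 0 members passed in limma (background 0.778% lower and 0.845% higher), with a lowest adjusted p of 0.0566, while 21 members had an unadjusted p under 0.05, all lower with U0126, and 10.8% of all tested probe sets had one. The 2D differences were below 0 in 43 of 47 members, with a median of -0.32, and their 95% intervals reached from -1.75 to 1.12 and lay within 1 log2 unit of 0 for 43 members. The 2D comparison gave between 0 and 8 calls over 20 other settings, and the 3D comparison between 5 and 21 over 19. The difference of the PD-98059 effect between cultures passed in 2 members higher in 3D and 4 lower (4.26% and 8.51%, against 22% and 12.3%), and that of U0126 in 4 and 4 (8.51% each, against 19.9% and 16.6%), with splits of 1 and 7 and of 3 and 10 after median centring and of 2 and 8 and of 4 and 8 after quantile normalization.

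**Figure D4:**
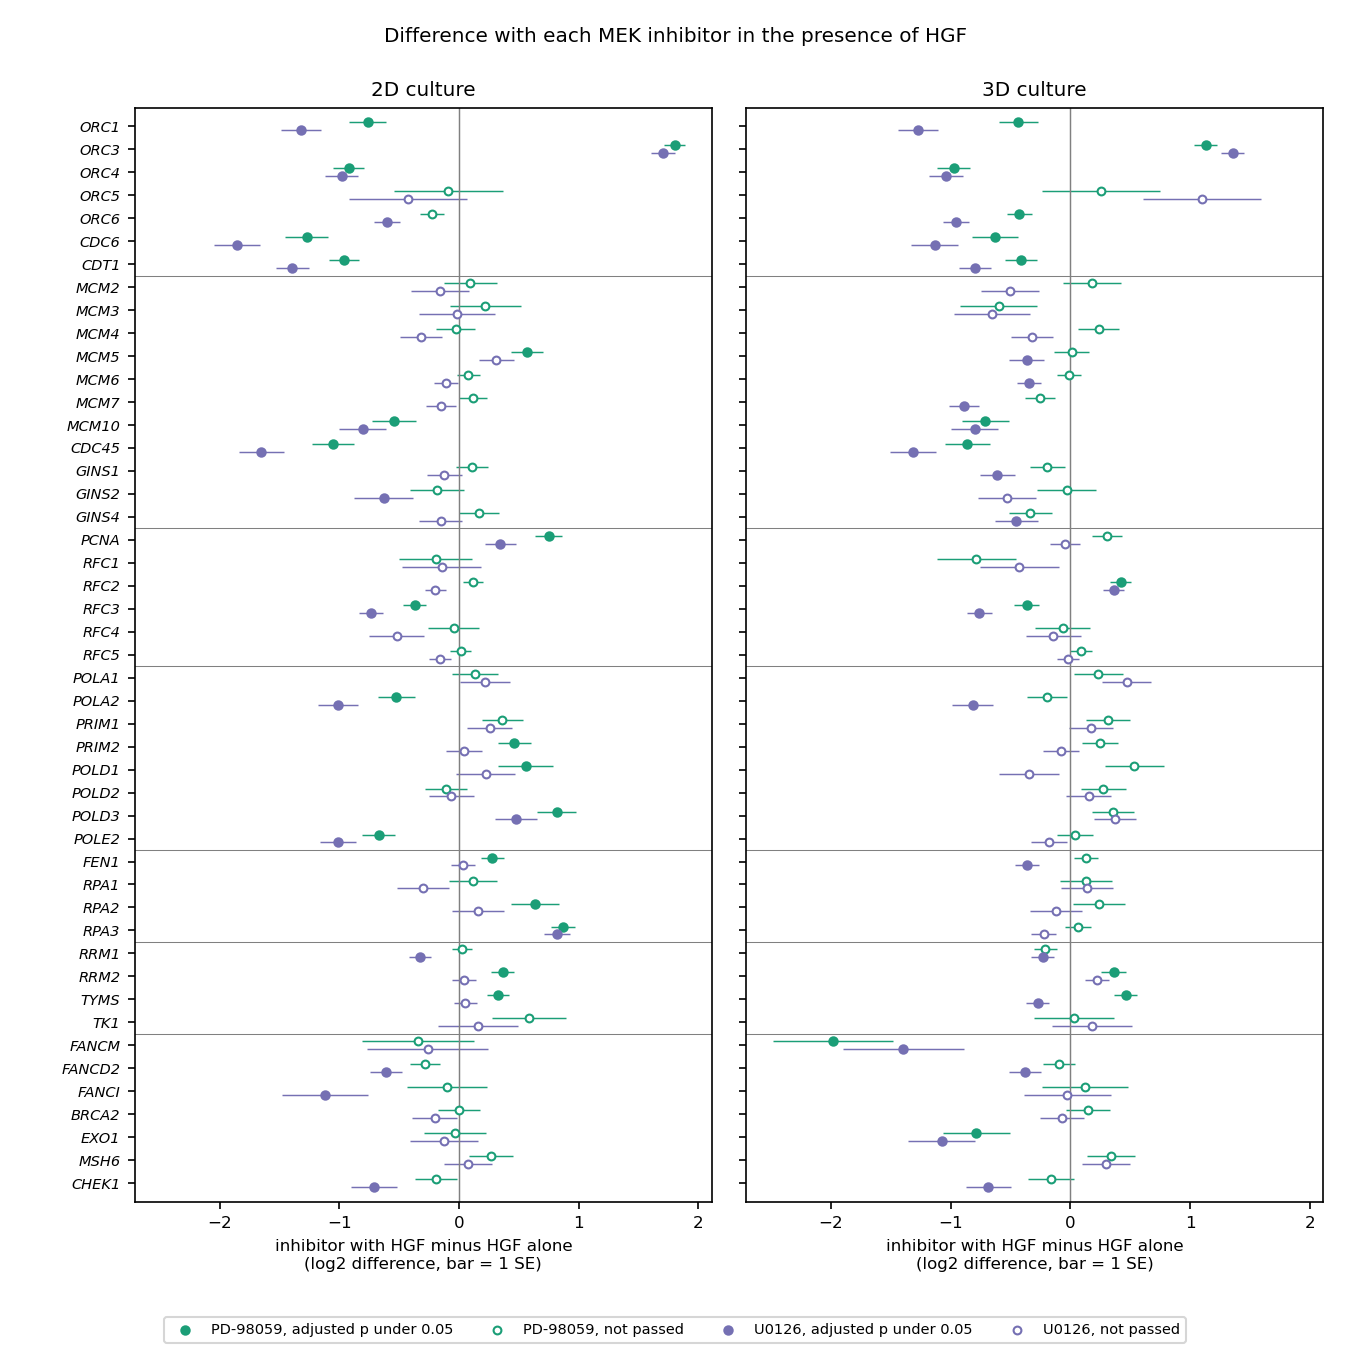
Log2 difference of HGF with PD-98059 (green) or U0126 (purple) against HGF alone, in 2D (left) and 3D (right), for the 47 tested members by role, with bars of 1 SE; filled points passed an adjusted p of 0.05. The licensing genes other than ORC3 and ORC5 lie left of 0, ORC3 lies right of 0, and of the MCM ring genes only MCM5 with PD-98059 in 2D and MCM5, MCM6 and MCM7 with U0126 in 3D are filled.

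Other genes of these pathways, 62 tested of 101 listed, were counted in the same way. With HGF in 2D 28 rose and 11 fell (background 26.3% and 29.2% of all tested probe sets). In 3D 26 rose and 6 fell with HGF (29.4% and 32.6%). In 3D against 2D control 30 were higher and 6 lower (23.6% and 28.7%). The same backgrounds apply to the short lists that follow. The medians of these pathway genes were 0.31, 0.26 and 0.38. Of 12 listed E2F factors and S phase cyclins 3 were tested, and all 3 rose, CCNA2 by 2.58 ± 0.22 in 2D and 1.12 ± 0.22 in 3D, and CCNE1 by 0.31 ± 0.11 and 1.84 ± 0.11. Of 8 firing and fork factors 5 rose in 2D and 6 in 3D, among them DBF4, the activator of the origin-firing kinase CDC7 (1.25 ± 0.12 and 1.39 ± 0.12), and DNA2, a nuclease and helicase of the lagging strand (1.30 ± 0.23 and 1.62 ± 0.23). DCK, which phosphorylates deoxycytidine, rose by 2.72 ± 0.25 and 2.59 ± 0.25, from dim control means of 3.32 in 2D and 4.91 in 3D. The 2D control mean of DNA2 was dim too (4.11). In chromatin assembly 4 of 5 rose in each culture, and the histone chaperone ASF1A fell (-0.51 ± 0.12 and -0.38 ± 0.12) while its paralogue ASF1B rose (1.52 ± 0.29 and 1.16 ± 0.29). The 2D control mean of ASF1B, 4.58, was dim.

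The repair lists beyond the members are short, of 3 to 12 tested genes. Their counts stand beside a background of 26.3% rising and 29.2% falling with HGF in 2D, and 29.4% and 32.6% in 3D, and nothing particular to a list is read from them. Of 12 tested excision repair genes 2 rose and 5 fell with HGF in 2D, and 2 rose and 2 fell in 3D. XPA, which verifies damage in nucleotide excision repair, fell with differences of -1.79 ± 0.11 in 2D and -1.62 ± 0.11 in 3D, and rose with each inhibitor by 1.52 to 2.16, while the glycosylase OGG1 rose with HGF (0.96 ± 0.14 and 0.73 ± 0.14). Homologous recombination had 4 of 7 rising in each culture and 0 falling, led by RAD54L (1.60 ± 0.23 and 1.98 ± 0.23). The other Fanconi anaemia genes rose in 2 of 6 cases in 2D, with FANCG falling, and in 1 of 6 in 3D. Mismatch repair had 1 of 3 rising in each culture, with PMS1 falling in 2D. End joining had 2 of 5 rising in 2D, with XRCC6 falling, and 1 of 5 in 3D. Checkpoint kinases had 2 of 4 rising in 2D and 1 of 4 in 3D, with WEE1 falling in 3D. In the translesion list REV1 and REV3L fell in each culture and 1 of 4 rose, the ubiquitin ligase RAD18 (1.94 ± 0.21 and 1.70 ± 0.21). The 2D control mean of RAD18, 4.83, was dim. The list of 9 tested mitosis genes, for comparison, had 9 rising in 2D, 8 in 3D and 9 higher in 3D than in 2D control. In that last comparison 23.6% of all tested probe sets were higher.

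Probe sets of a gene seldom had opposite calls, but some passed where others of the same gene did not. Of the 47 members 31 had more than 1 tested probe set, and none of them had opposite calls for HGF in 2D, for HGF in 3D or in an inhibitor comparison. With HGF in 2D another probe set of MCM3, MCM7, RFC5, POLA1, PRIM2, FEN1 and RRM1 did not pass although the chosen one rose. Their adjusted p lay between 0.0687 and 0.637. With HGF in 3D another probe set of ORC3, RFC1, RPA3 and FANCD2 did not pass although the chosen one did (adjusted p between 0.0716 and 0.576). For FANCM and POLD2 another probe set rose in 2D where the chosen one did not pass. Every tested probe set of ORC1, ORC4, ORC6, CDT1, MCM4, MCM5, MCM6, PCNA, RFC3, POLA2 and TYMS rose with HGF in both cultures. MCM7 had opposite calls in 3D against 2D control, and RFC1 in 3D against 2D HGF. ORC1 and RRM1 had opposite calls for the difference of the HGF effect between cultures.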

How the data were processed

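RNA of MDCK cells was hybridised to 29 Affymetrix canine arrays, and the deposited table gives log2 values made by the authors, 1 per probe set and array. The submitters' processing notes name MAS5, Affymetrix Expression Console 1.1, GCRMA and Partek 6.6 without role or order. Arrays give no read depth, and their number per group limits the precision. Arrays were grouped by the labels. Of 42924 probe sets other than controls, the 16571 that reached log2 5 in at least 3 arrays were tested without further normalization in limma 3.58.1 (R 4.3.3). The model held the 8 group means over all 29 arrays, with a mean-variance trend and two-sided tests. P-values were adjusted by Benjamini-Hochberg within each of 17 comparisons (threshold 0.05). The fit was tested on simulated data. Genes come from GEO's platform annotation, which can be old, and only from probe sets with 1 symbol (29254, against 439 with several and 13231 with none). The Entrez ID given there for MCM7, ORC1, POLA1, RPA1, RPA2, TK1, FANCI and EXO1 differs from that of current RefSeq, and the symbols were kept. No genome was used here, so no positions or sequences are given.

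The members and lists were chosen with earlier results of these data known. Values of every array are given for the member of each role group with the largest called HGF difference in 2D and in 3D, up to 3 members called against the majority, the 3 largest called differences between untreated cultures, up to 2 called members in each comparison between inhibitors, and CDC6, MCM2, PCNA, RRM2 and FANCM. Other members are named within their role group, and some of these were chosen after their values were seen. Same-numbered arrays did not deviate alike on average, a mean that cannot exclude pairing in some groups. Alternatives were the filter, the trend, the groups fitted, normalization, array weights, replicate blocks, the RNA-quality covariate, the choice of probe set and each array left out. Counting only members above log2 5 in every group was added after seeing the data.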

Additional observations from a re-analysis of the deposited data

Results flagged for a closer look

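Among 85 groups of 4 arrays over the 17 genes given by array, 8 held an array far from the other 3, and chance gives about 1 in 20. FANCI had 3 of them: 4.28 in 2D control replicate 1, 4.05 in 3D control replicate 1 and 6.90 in 3D HGF replicate 4. FANCM had 5.96 in 2D HGF with PD-98059 replicate 3 and 5.10 in 3D control replicate 2. TK1 was at 2.78 in 2D control replicate 4, a dim level. PCNA at 10.44 in 2D control replicate 1 and ORC3 at 11.44 in 3D control replicate 4 stood apart from arrays that were themselves very close to each other.

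The HGF effect differed between cultures (3D minus 2D, log2, adjusted p under the threshold in limma) for 15 members. It was larger in 3D for FANCM (2.61), RFC1 (1.18), RPA3 (1.13), MCM10 (0.73), GINS1 (0.47) and MCM7 (0.44), and ORC3 fell less there (0.65). The difference was below 0 for CDC6 (-1.42), CDC45 (-1.19), POLA1 (-1.14), ORC1 (-1.02), POLE2 (-0.99), POLA2 (-0.76), BRCA2 (-0.63) and RRM1 (-0.30), and of these POLA1 did not pass with HGF in 3D. With 1 of the 16 compared arrays left out at a time, the call was lost in 12 cases for RRM1, 11 for GINS1, 7 for MCM7 and 6 for BRCA2 (-0.40 without 2D control replicate 1, adjusted p = 0.0968). The PD-98059 effect differed for RPA3 (-0.80), POLE2 (0.71), ORC3 (-0.67), MCM5 (-0.56), CDT1 (0.55) and PCNA (-0.44). The U0126 effect differed for RPA3 (-1.04), POLE2 (0.83), MCM7 (-0.74), CDC6 (0.72), MCM5 (-0.68), CDT1 (0.60), RFC2 (0.56) and FEN1 (-0.39). The PCNA and CDC6 values for the inhibitor effects had the highest adjusted p of their comparisons, 0.0486 and 0.0424. Both calls were lost without any of several single arrays (adjusted p up to 0.12 and 0.132), and CDC6 with the RNA-quality covariate (0.233). Some single arrays left out also lost MCM5 and CDT1 for PD-98059 (up to 0.109 and 0.0558). For U0126 they lost CDT1 and FEN1 (up to 0.0571 and 0.0955). With the probe set of largest variance ORC3 did not pass for PD-98059 (0.162), nor ORC3 and POLA2 for HGF (0.427 and 0.157).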

How the results depend on the processing

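Of 407 called member differences over 17 comparisons, 375 were kept without the filter, 376 in the compared groups alone, 403 with quantile normalization, 403 with median centring, 401 with array weights, 386 with the RNA-quality covariate, 395 without 3D HGF replicates 1 and 4, 385 with each gene's probe sets averaged and 360 with the probe set of largest variance. The number of members called ranged from 34 to 42 for HGF in 3D, from 35 to 42 for HGF in 2D and from 30 to 41 for 3D against 2D control. The low ends, 34, 35 and 30, count only the 40 members dim in no group. With single arrays left out the counts were 39 to 41, 40 to 41 and 34 to 36 in the same order. Deviations of same-numbered arrays did not correlate on average (mean -0.0023 by title, -0.0142 by sample name). Single pairs ran from -0.43 to 0.60 by title, so the mean cannot exclude pairing in some groups. The replicate block kept 399 calls, lost 8 and gained 4, and the block by name number kept 391. Median centring shifted the median of all probe sets by 0.1003 for HGF in 3D, 0.118 for 3D against 2D HGF and -0.1314 for PD-98059 in 3D.

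Counts that moved were those for the inhibitors and the differences between cultures. For U0126 in 3D there were 14 calls in the compared groups alone. For U0126 against PD-98059 in 3D there were 21 with array weights, 15 with the RNA-quality covariate, 15 without 3D HGF replicates 1 and 4, and 5 to 10 with an array left out. In 2D there were 7 with quantile normalization, 6 with median centring, 5 with array weights, 8 with the covariate, 5 without those 3D HGF arrays, 2 with the mean of probe sets, and 0 to 5 with an array left out. The HGF effect between cultures gave 9 without the filter. The PD-98059 effect gave 3 without the filter and 10 with quantile normalization, array weights, the covariate or the mean of probe sets. The U0126 effect gave 13 with median centring or the covariate, 16 with array weights, 14 without those 3D HGF arrays, and 5 to 14 with an array left out. The cause was not tested.

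With the covariate the sign turned for ORC5 (-0.98 for HGF in 2D, 0.92 for 3D against 2D control, 1.63 for 3D against 2D HGF, 1.08 for PD-98059 in 2D), MSH6 (-0.50, HGF in 2D), RPA1 (0.77 for 3D against 2D HGF, -0.55 for the PD-98059 effect), MCM4 (0.39, PD-98059 in 2D) and MCM3 (0.70, U0126 in 2D). With the mean of probe sets it turned for RRM1 (0.59) and FANCD2 (-0.79) in the HGF effect between cultures. With the probe set of largest variance it turned there for ORC1 (1.64), FEN1 (1.12), RRM1 (1.36), FANCM (-0.16) and FANCD2 (-1.65). It also turned for RFC1 (0.87), RFC2 (-0.28) and RRM2 (-0.53) in 3D against 2D control, RRM2 (-0.058) in 3D against 2D HGF, FEN1 (0.014) and FANCD2 (0.22) for U0126 in 3D, and POLD2 (0.49) for PD-98059 in 2D. The cause of these was not tested.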
